A study of Mus musculus with 24 samples.

Results

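Genes that mark T cells and natural killer (NK) cells were followed through 24 RNA sequencing libraries of mouse left gastrocnemius, a fast muscle of the calf. The set was a list of 32 gene symbols, and all 32 were found among the 54532 genes of the count tables. The libraries came from wild-type C57/BL6 mice and fell into 6 groups of 4, 1 group for each sex and condition. Controls were pain-free and received saline of pH 7.2 in the muscle, in 2 injections of 20 µl given 5 days apart. The sedentary pain groups received injections of pH 5.0 on the same schedule, and the muscle was made to contract electrically for 6 min immediately before the second. The active pain groups had a running wheel for 8 weeks before the same procedure. The time label was 24 h in every sample, and ages were not given in the sources used here. Controls had neither acid nor contraction, so the effects of these 2 cannot be told apart, and no group ran without pain, so running was compared only within the pain groups. The labels number the replicates 1 to 4 without saying that each was a separate animal, so p-values measure the spread between these libraries.

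T cells recognise peptide on other cells through the T cell receptor, whose signal passes through the CD3 chains, the kinase Lck, the kinase Zap70 and the adaptor Lat. CD4 and CD8 hold the receptor to its target, and CD28, CTLA4 and ICOS adjust the response. NK cells carry other activating and inhibitory receptors, and share with CD8 T cells the granules of perforin and granzymes that kill target cells. Resting muscle holds few lymphocytes, and after muscle injury macrophages and T cells, including FOXP3-positive regulatory T cells, are known to enter it.

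Total counts ranged from 17612139 to 34039699 per library. Muscle genes were abundant in all 24 libraries. The summed level of 12 skeletal muscle genes was 141648 and 133578 CPM (counts scaled to library size by trimmed mean of M-values) in female sedentary pain libraries 3 and 4, and 169952 to 297045 CPM in the other 22. Female sedentary pain libraries 3 and 4 also stood apart in the T and NK genes. The counts of these genes for that group are given below with and without both libraries, and counts of other lists only with them. Replicates 1 and 2 of every group carry library numbers up to 20 and replicates 3 and 4 numbers from 25 on, and what these numbers stand for was not given in the sources used here. Because the libraries are of bulk tissue, more cells of a type and more RNA per cell cannot be told apart.

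Most of the T and NK genes had few counts in control muscle, and their summed level was far higher in 2 of the 4 female sedentary pain libraries. Summed over the 32 genes, the level was 10.6, 9.0, 13.9 and 15.2 CPM in female controls 1 to 4. It was 24.3, 48.0, 314 and 511 CPM in female sedentary pain and 14.5, 12.4, 20.9 and 21.1 CPM in female active pain. In males it was 12.4, 11.1, 14.04 and 12.5 CPM in controls, 28.4, 10.7, 14.2 and 24.1 CPM with sedentary pain, and 21.6, 22.99, 14.2 and 17.4 CPM with active pain. The 4 female sedentary pain libraries lay above all 4 female controls, and libraries 3 and 4 lay far above the other 22. For 31 of the 32 genes, all but Cd28, libraries 3 and 4 held the 2 highest values of all 24. This pattern was seen in 14.3% of the 14511 genes tested in females, which include 18 of the 32. For 26 of the 32, the lower of these libraries was at least 4 times the highest of the other 22, and the median of that ratio over the 32 genes was 7.90. Library 4 exceeded library 3 for 29 of the 32, against 47.9% of the genes tested. The median ratio was 1.42, with a range from 0.553 for Cd28 to 2.97 for Lat. Outside female sedentary pain, 24 of the 32 genes had at most 30 counts in each of the 20 libraries.

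**Figure D1:**
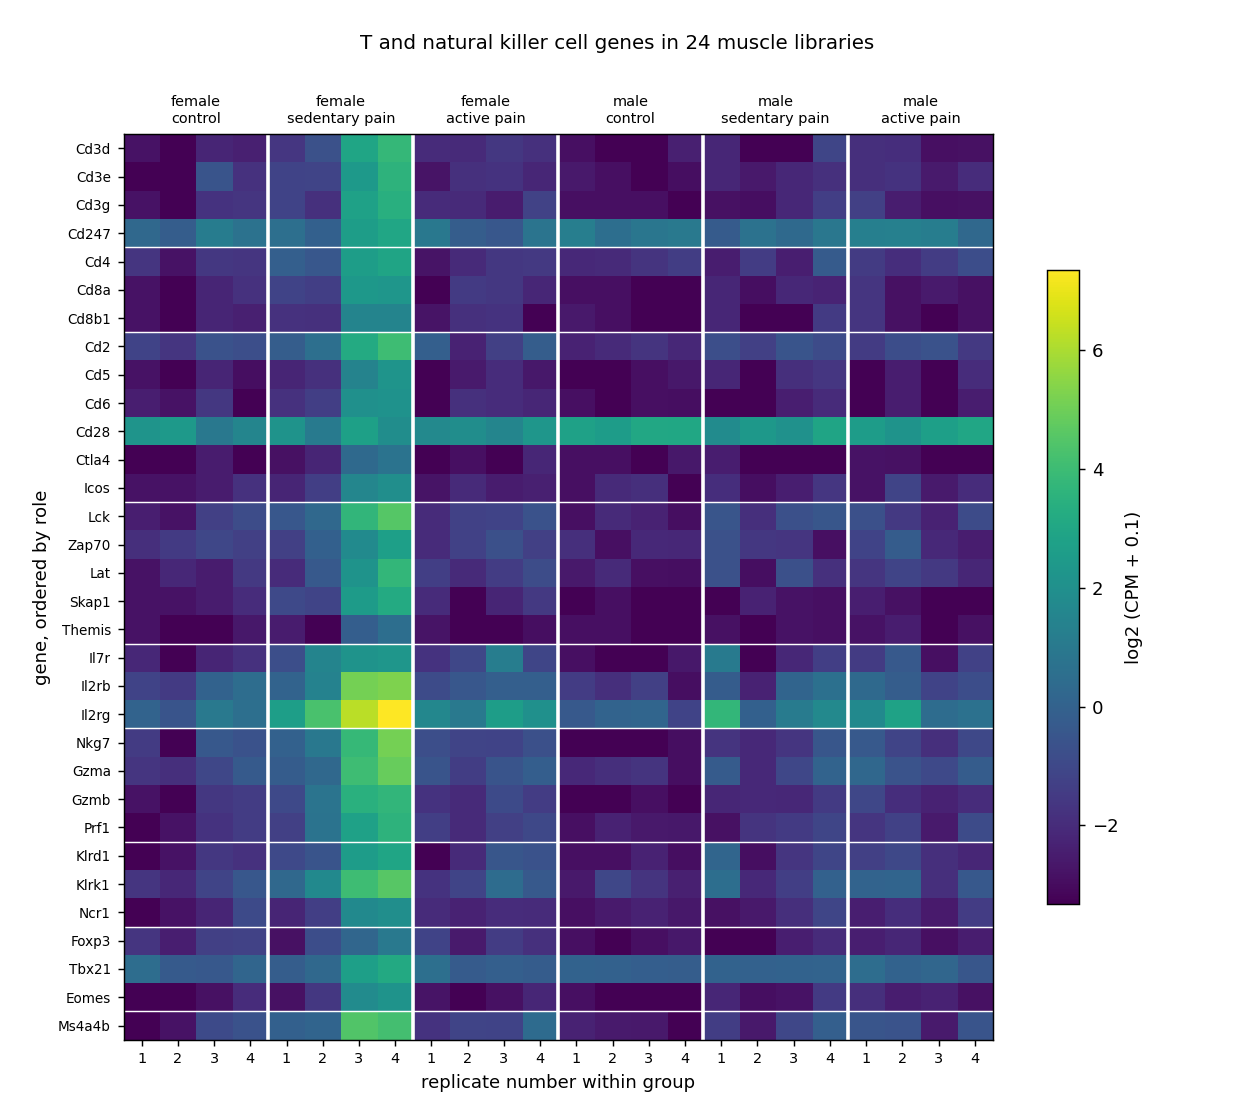
Heat map of the 32 genes (rows, ordered by role) in the 24 libraries (columns, replicates 1 to 4 of each group), coloured by log2 of CPM plus 0.1. Female sedentary pain libraries 3 and 4 form a bright column pair in 31 of the 32 rows, and the row of Cd28 is bright in all groups.

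Sequences upstream of 5 of the genes are shown because these genes differed in their pattern. Cd3e had at most 15 counts outside those 2 libraries, Nkg7 was at 0 or 1 count in male controls, Il2rg also varied among libraries with few CD3 transcripts, and Cd247 and Tbx21 were measurable in every library. The stretches come from RefSeq (GRCm38.p6) and end at or before the annotated start of the same gene. They are chr9:45009628-45009861 on the minus strand for Cd3e, chr7:43436888-43437072 on the plus strand for Nkg7, chrX:101268256-101268505 on the minus strand for Il2rg, chr1:165788431-165788680 on the plus strand for Cd247 and chr11:97115332-97115581 on the minus strand for Tbx21. Capitals mark matches, on either strand, to TGTGGT (the core bound by RUNX factors), AGGAAG (ETS factors) and AGGTGT (T-box factors such as TBX21 and EOMES).
Cd3e: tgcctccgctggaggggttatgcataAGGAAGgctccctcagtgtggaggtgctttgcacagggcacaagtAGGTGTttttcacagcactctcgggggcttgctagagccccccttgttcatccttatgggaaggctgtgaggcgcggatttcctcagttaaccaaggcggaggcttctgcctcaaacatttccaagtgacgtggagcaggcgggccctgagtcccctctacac
Nkg7: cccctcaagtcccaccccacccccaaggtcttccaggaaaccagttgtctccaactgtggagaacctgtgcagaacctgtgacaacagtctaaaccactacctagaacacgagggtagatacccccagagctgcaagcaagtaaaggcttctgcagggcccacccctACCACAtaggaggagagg
Il2rg: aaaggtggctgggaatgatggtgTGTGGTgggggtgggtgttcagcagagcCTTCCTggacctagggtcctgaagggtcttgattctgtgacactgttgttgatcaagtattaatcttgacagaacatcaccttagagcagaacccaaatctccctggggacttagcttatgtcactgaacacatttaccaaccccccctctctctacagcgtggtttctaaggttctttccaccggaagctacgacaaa
Cd247: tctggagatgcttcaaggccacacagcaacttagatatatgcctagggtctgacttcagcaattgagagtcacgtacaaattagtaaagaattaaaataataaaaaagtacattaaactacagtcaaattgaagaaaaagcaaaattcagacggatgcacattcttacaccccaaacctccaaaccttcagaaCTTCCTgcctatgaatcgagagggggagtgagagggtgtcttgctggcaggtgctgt
Tbx21: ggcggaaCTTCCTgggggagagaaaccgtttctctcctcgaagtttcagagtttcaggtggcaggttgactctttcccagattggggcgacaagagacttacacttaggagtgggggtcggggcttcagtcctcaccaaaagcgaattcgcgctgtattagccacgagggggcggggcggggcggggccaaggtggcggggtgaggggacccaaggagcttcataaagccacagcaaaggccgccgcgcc
A promoter was available for 23 of the 32 genes. In the 250 bases before the start, TGTGGT was found in 8 of the 23 (34.8%) and in 14.2% of 27025 mouse promoters. AGGAAG was found in 13 of the 23 (56.5%, against 29.2% of all), and AGGTGT in 8 (34.8%, against 11.99%). The printed stretches of Cd3e (234 bases) and Nkg7 (185 bases) are shorter than the 250 bases counted. Nkg7 has all 3 motifs in its 250 bases and 1 in the printed stretch, those of Cd3e and Il2rg hold 2, and those of Cd247 and Tbx21 hold 1. A match is a description of the letters and not of binding.

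The first comparison asked which of the genes differ with muscle pain in sedentary females. Of the 18 that passed the filter on low counts, 16 rose and 0 fell against the female controls (edgeR quasi-likelihood test, Benjamini-Hochberg adjusted p under 0.05). Among all 14511 genes tested, 33.5% passed in either direction and 19.6% rose. The median log2 fold change was 4.89 over the 18 genes and -0.02 over all genes tested. The 2 that did not pass were Cd247, at a log2 fold change of 1.53 ± 0.63 (the standard error, SE, that matches the test's p, with adjusted p = 0.0775), and Cd28, at 0.20 ± 0.38 (adjusted p = 0.693). The other 14 genes had too few counts in too few libraries to be tested in edgeR, because the filter asks for counts in as many libraries as a group holds. Of the 18, 10 passed only through the sedentary pain libraries, which had to be high for the gene to be tested, so the count and the median over the 18 are a description. These 10 were Cd4, Lck, Zap70, Lat, Il7r, Gzmb, Prf1, Klrd1, Klrk1 and Ms4a4b. Their changes and p-values against this group, here and below, are a description too. Of the 8 that would pass without that group, 6 rose. The groups' values did not overlap for 16 of the 32 genes, all 16 higher with pain, against 9.85% of the 26069 genes with any count in females. With library 3 and library 4 left out together, 2 genes rose, Il2rg and Klrk1, where 9.59% of genes passed in either direction, and the median fell to 1.79. Within replicates 1 and 2 of each group 2 genes rose, Il2rg and Ms4a4b (1.67% of genes in either direction), and within replicates 3 and 4 of each group 31 of 32 did (22.4%). DESeq2 called 30 of 32 (34% of genes), but it leaves out genes of low mean count, and that mean includes the pain libraries. Its counts, here and below, are thus a description. Without a filter edgeR called 29 of 32 (16.2%). A filter that asks for counts in 2 libraries also gave 29 (33.4% of genes), but 18 of the 32 passed it only through sedentary pain, as did 19 within replicates 3 and 4, so these counts are no support. With 1 surrogate variable in the fit 0 of the 18 passed (0.751% of genes).

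**Figure D2:**
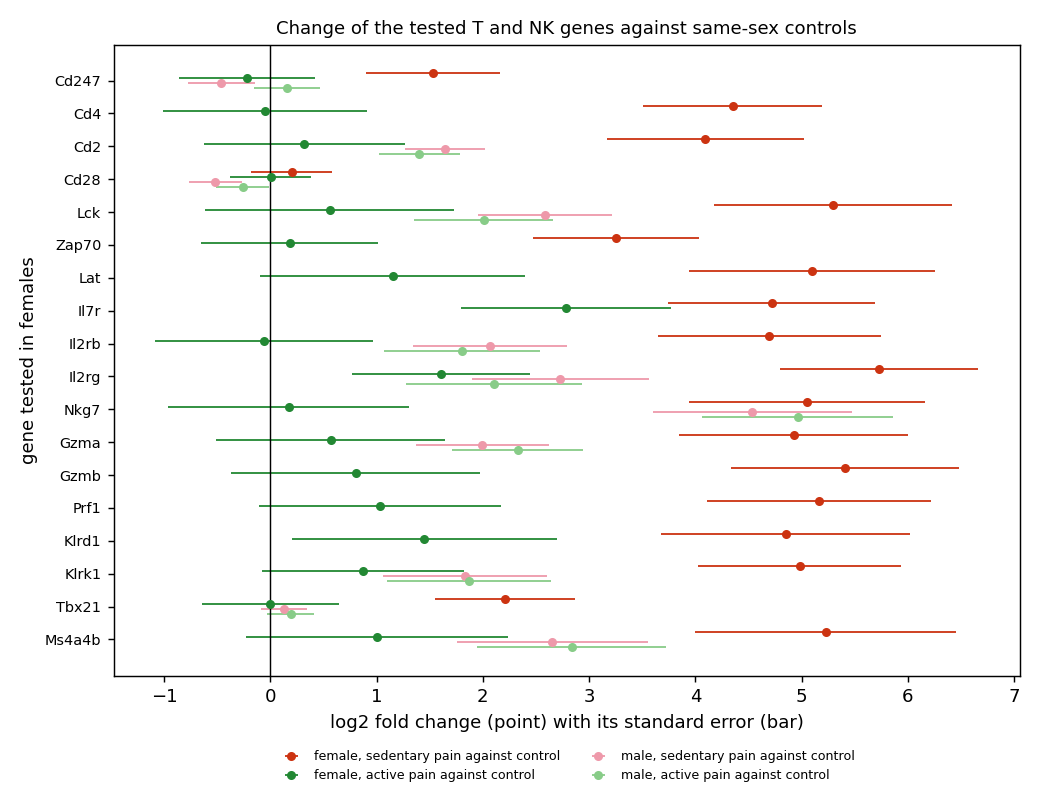
Log2 fold change against same-sex controls (horizontal axis) of the 18 genes tested in females (vertical axis), as points with bars of 1 standard error, for sedentary and active pain in females and, for the 11 tested, in males. Female sedentary pain lies between 2.21 and 5.73 for 16 genes and nearer 0 for Cd247 and Cd28. The male fold change of Nkg7 depends on the added prior count, since male controls hold 1 count in all.

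The CD3 chains carry the signal of the T cell receptor into the cell. Cd3e (ENSMUSG00000032093, chromosome 9, 44998740 to 45009627, minus strand, GENCODE M21 on GRCm38) had 0, 0, 15 and 6 counts in female controls 1 to 4 and 9, 6, 168 and 337 counts in female sedentary pain, or 0.340, 0.350, 5.44 and 11.9 CPM. Female active pain had 1, 5, 5 and 4 counts. Libraries 3 and 4 thus lay far above the rest, while libraries 1 and 2 lay within the range of the controls. Its neighbours on the chromosome were also highest in libraries 3 and 4. Cd3d had 233 and 388 counts in libraries 3 and 4 and at most 10 in any of the other 22, and Cd3g had 211 and 299 counts against at most 11. These 3 genes did not pass the edgeR filter on low counts and are not among the 18. DESeq2, which tested all 32 genes, called all 3 higher than in controls, which is a description for the reason given above.

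Cd247, which encodes the zeta chain, behaved differently from the other CD3 chains. It had 1.13, 0.799, 2.15 and 1.53 CPM in female controls, 1.40, 0.876, 6.12 and 7.94 CPM in females with sedentary pain, and 1.81, 0.777, 0.654 and 1.61 CPM in female active pain. In males it was 2.29, 1.36, 1.73 and 1.89 CPM in controls, 0.727, 1.54, 1.14 and 1.78 CPM with sedentary pain, and 2.37, 2.40, 2.19 and 1.11 CPM with active pain. Libraries 3 and 4 exceeded the other 22. Per kb of exon, Cd247 was at 1.15 and 1.49 CPM in libraries 3 and 4, and Cd3d at 4.16 and 7.54. In female controls Cd247 made up 11.5% of the summed level of the 32 genes, and in libraries 3 and 4 1.95% and 1.55%. Its locus overlaps Pou2f1 and 5 further annotated genes, and the use of strand in counting was not given in the sources used here.

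The coreceptors CD4 and CD8 mark the helper and the cytotoxic class of T cell. Cd4 had 0.217, 0.0421, 0.234 and 0.214 CPM in female controls and 0.832, 0.642, 6.12 and 7.44 CPM in female sedentary pain, with no overlap between the groups. It rose by 4.35 ± 0.84 on the log2 scale (SE, edgeR adjusted p = 0.00458). Cd4 passed the filter only through sedentary pain, so this change is a description. Cd8a had 1, 0, 3 and 6 counts in female controls and 9, 5, 157 and 137 counts with sedentary pain, and Cd8b1, the second CD8 chain, had 1, 0, 3 and 3 and then 5, 3, 84 and 78. Neither passed the edgeR filter on low counts, and DESeq2 called both higher, which is likewise a description. For both, the sedentary pain libraries did not overlap the controls. Cd8a was among the 3 genes that were higher in library 3 than in library 4. Per kb, libraries 3 and 4 held 1.52 and 1.85 CPM of Cd4, 1.40 and 1.33 of Cd8a, and 1.83 and 1.86 of Cd8b1. These transcript levels were of the same order, which does not give the numbers of cells of either class.

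Among costimulatory and adhesion receptors, Cd2, an adhesion receptor of T and NK cells, was tested and rose. Its level was 0.347, 0.210, 0.546 and 0.489 CPM in female controls, 0.794, 1.40, 9.23 and 16.6 CPM with sedentary pain and 0.833, 0.106, 0.308 and 0.790 CPM with active pain. The log2 fold change of sedentary pain against control was 4.09 ± 0.93 (adjusted p = 0.00881). Cd5 and Cd6, scavenger-type receptors that dampen T cell receptor signals, had 82 and 129 counts and 123 and 119 counts in libraries 3 and 4, and at most 6 in every other library. Ctla4, the inhibitory receptor for CD80 and CD86, had 36 and 44 counts there and at most 4 elsewhere. Icos, an inducible costimulator, had 89 and 107 counts there and at most 9 elsewhere.

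Cd28, the main costimulatory receptor of T cells, went against the rest of the list. It had 4.46, 5.30, 1.83 and 2.81 CPM in female controls, 4.42, 1.98, 6.58 and 3.63 CPM in females with sedentary pain, and 3.13, 3.71, 2.77 and 4.77 CPM in female active pain. In males it had 6.79, 5.94, 8.41 and 8.08 CPM in controls, 3.47, 5.05, 4.14 and 7.49 CPM with sedentary pain, and 5.81, 4.36, 6.36 and 7.79 CPM with active pain. All groups overlapped with those of the same sex, and the highest library was male control 3. Cd28 therefore made up 29.6% of the summed level in female controls and 58.5% in male controls, and 2.09% and 0.711% in libraries 3 and 4. Its annotated end lies 113.6 kb from the start of Ctla4, and Icos follows 62.1 kb beyond Ctla4 on chromosome 1, so the 3 relatives lie side by side, and Cd28 did not share the profile of the other 2. The counts cannot show which cells, or which part of the Cd28 locus, the reads came from.

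**Figure D3:**
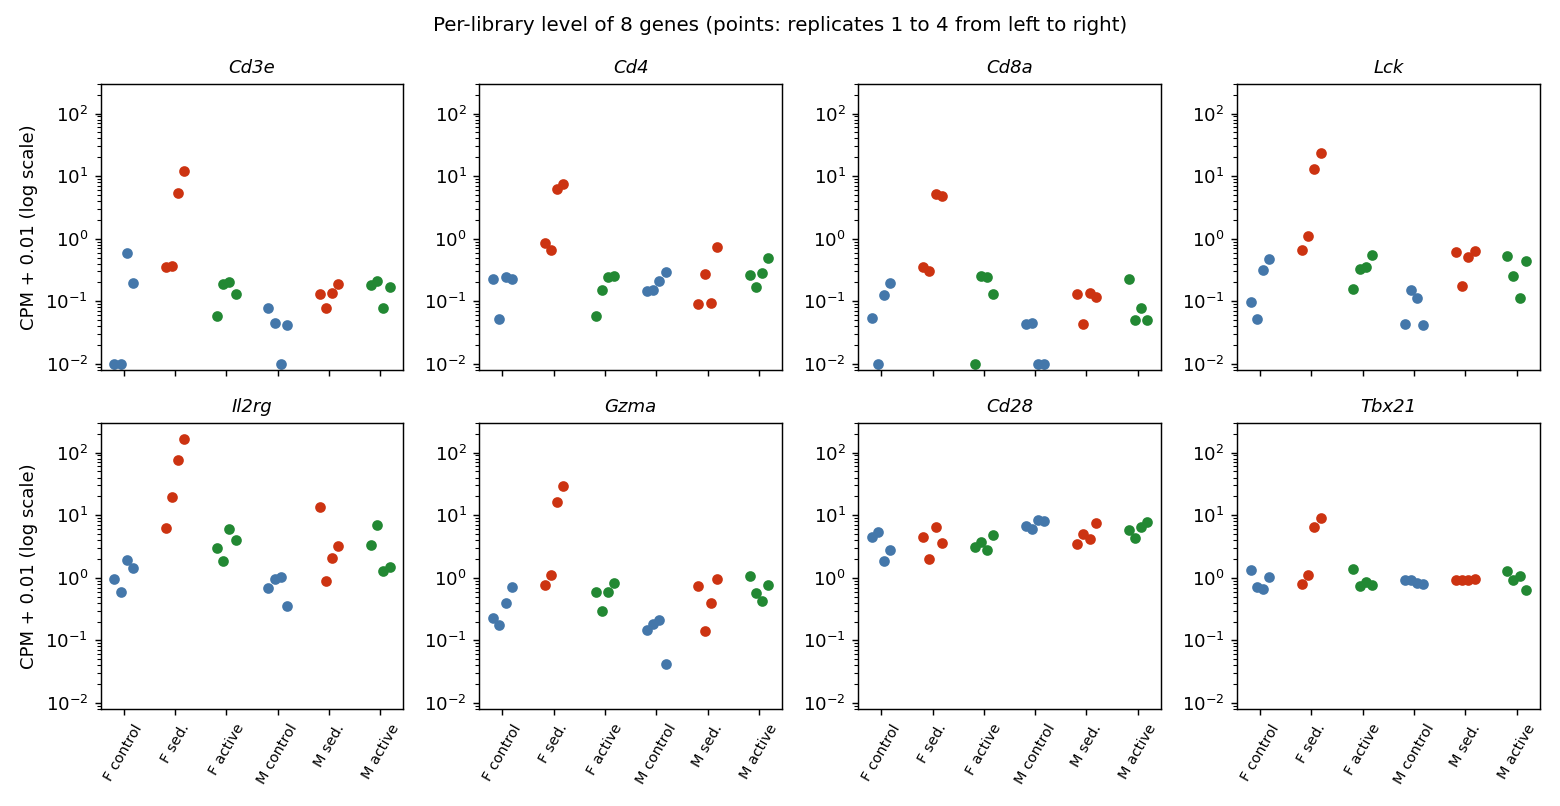
Level of 8 genes in each library (vertical axis, CPM plus 0.01 on a log scale) by group (F female, M male), with replicates 1 to 4 from left to right. Libraries 3 and 4 of female sedentary pain lie above all other libraries for each gene shown except Cd28, and Tbx21 and Cd28 are measurable in every library.

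The kinases and adaptors act directly below the receptor. Lck, the kinase that starts the signal, had 0.0866, 0.0421, 0.312 and 0.458 CPM in female controls, 0.643, 1.11, 13.1 and 23.3 CPM with sedentary pain and 0.147, 0.318, 0.346 and 0.547 CPM with active pain. All 4 sedentary pain libraries lay above all controls, and the gene rose by 5.29 ± 1.12 (adjusted p = 0.00657). Lck, Zap70 and Lat passed the filter only through sedentary pain, so their changes are a description. Zap70, the kinase recruited to the CD3 chains, had the smallest change of the tested kinases and adaptors. It had 0.173, 0.252, 0.390 and 0.305 CPM in controls and 0.302, 0.876, 3.34 and 6.49 CPM with sedentary pain, a rise of 3.25 ± 0.78 (adjusted p = 0.0111), and library 1 lay within the controls. Lat, the adaptor that both kinases act on, rose by 5.10 ± 1.15 and had the largest ratio of library 4 to library 3. Skap1, an adaptor of integrin activation, had 176 and 258 counts in libraries 3 and 4 and at most 11 elsewhere. Themis, which sets signalling thresholds in developing T cells, had 25 and 38 counts there and at most 2 elsewhere. These last 2 genes did not pass the edgeR filter.

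The 3 cytokine receptor chains were all tested and all rose, where 19.6% of all genes tested rose. Il7r passed the filter only through sedentary pain, so the count is a description. Il2rg, the common gamma chain of the receptors for interleukins 2, 7, 15 and others (ENSMUSG00000031304, chromosome X, 101264378 to 101268255, minus strand), had the highest level per kb of exon in libraries 3 and 4, at 31.4 and 68.6 CPM. It had 0.953, 0.589, 1.91 and 1.41 CPM in female controls, 6.16, 19.4, 75.1 and 164 CPM with sedentary pain, and 2.94, 1.87, 6.12 and 4.01 CPM with active pain. Its rise of 5.73 ± 0.93 (adjusted p = 0.00285) was the largest of the 16. Il2rb, the beta chain shared by the receptors for interleukins 2 and 15, rose least of the 3, by 4.70 ± 1.05 (adjusted p = 0.00811), with 0.945, 2.57, 34.7 and 38.8 CPM with sedentary pain against at most 1.31 CPM in female controls. Together the 3 chains took 36.3% and 40.6% of the summed CPM of the 32 genes, not scaled by length, in libraries 3 and 4.

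Il2rg and Il7r, the receptor chain for interleukin 7, also varied among libraries in which CD3 transcripts were few. Il7r had 0.130, 0, 0.117 and 0.183 CPM in female controls, 0.491, 2.74, 4.34 and 4.8 CPM with sedentary pain and 0.196, 0.388, 2.23 and 0.365 CPM with active pain. In males the highest values were 1.94 CPM of Il7r and 13.5 CPM of Il2rg, both in sedentary pain library 1. After libraries 3 and 4, the 4 libraries with the most Il7r were female sedentary pain 2, female active pain 3, male sedentary pain 1 and male active pain 2, where Il2rg was at 19.4, 6.12, 13.5 and 6.92 CPM. Their summed levels of 10 neutrophil genes were 283, 122, 324 and 85.8 CPM, the 4 highest of the 24. Their summed levels of Cd3d, Cd3e and Cd3g were 1.05, 0.500, 0.283 and 0.440 CPM, against 19.8 and 36.1 CPM in libraries 3 and 4. The same sum was at most 0.898 CPM in female controls and 0.136 CPM in male controls, so 3 of these 4 libraries lay above the controls of their sex. Genes of leukocytes in general were also high in female sedentary pain 2 and female active pain 3. Coro1a had 91.8 CPM in female sedentary pain 2 against 26.9 CPM in library 1. In female active pain 3 it had 37.0 CPM, against at most 16.9 CPM in the rest of that group. The part of neutrophils or other leukocytes in the values of Il2rg and Il7r was not tested.

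The cytotoxic granule genes were all tested and all rose, where 19.6% of all genes tested rose. Gzmb and Prf1 passed the filter only through sedentary pain, so the count and their changes are a description. Gzmb, granzyme B, had 0.0433, 0, 0.234 and 0.275 CPM in female controls, 0.416, 1.63, 10.9 and 13.0 CPM with sedentary pain and 0.196, 0.141, 0.423 and 0.273 CPM with active pain. Its rise of 5.41 ± 1.07 (adjusted p = 0.00517) was the largest of the 4. Gzma, granzyme A, rose least, by 4.92 ± 1.08 (adjusted p = 0.00752), from 0.217, 0.168, 0.390 and 0.703 CPM to 0.756, 1.11, 16.1 and 29.4 CPM. Perforin, encoded by Prf1, rose by 5.17 ± 1.05 and Nkg7, a membrane protein of cytotoxic granules, by 5.05 ± 1.11. For all 4 genes, every sedentary pain library was above every female control. Per kb, libraries 3 and 4 held 15.4 and 37.6 CPM of Nkg7, 16.03 and 29.2 of Gzma, and 7.56 and 9.06 of Gzmb, each above the Cd4, Cd8a and Cd8b1 levels of the same library. Granzymes form a family of similar genes, as do the killer cell lectin-like receptors and the MS4A proteins below, and how reads shared between relatives were counted was not given in the sources used here.

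Of the NK receptors, Klrk1, which encodes the activating receptor NKG2D, had 0.217, 0.126, 0.351 and 0.642 CPM in female controls, 1.13, 3.21, 16.6 and 23.8 CPM with sedentary pain and 0.196, 0.353, 1.27 and 0.699 CPM with active pain. It rose by 4.98 ± 0.96 (adjusted p = 0.00458). Klrk1 and Klrd1 passed the filter only through sedentary pain, so their changes are a description. Klrd1, the CD94 chain that pairs with NKG2 receptors, rose by 4.85 ± 1.17 (adjusted p = 0.0117), from at most 0.234 CPM in female controls to 0.416, 0.584, 5.80 and 7.69 CPM. Ncr1, the activating receptor NKp46, is the most specific NK cell marker of the 3. It had 0, 1, 3 and 14 counts in female controls and 3, 5, 99 and 106 counts in sedentary pain, and did not pass the edgeR filter. Receptors of NK cells and chains of the T cell receptor complex were thus high in the same 2 libraries.

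Among the transcription factors, Tbx21 (T-bet, which drives the type 1 programme of T and NK cells) was the only one to pass the edgeR filter. It had 1.30, 0.715, 0.663 and 1.01 CPM in female controls, 0.794, 1.11, 6.38 and 8.96 CPM with sedentary pain and 1.37, 0.741, 0.847 and 0.760 CPM with active pain. Its rise of 2.21 ± 0.66 was the smallest of the 16 (adjusted p = 0.0267), and libraries 1 and 2 lay within the controls. Within replicates 1 and 2 alone its log2 fold change was -0.10 (adjusted p = 0.907). Males had 0.633 to 1.29 CPM in all 12 libraries. Eomes, a related T-box factor of NK and memory CD8 cells, had 107 and 124 counts in libraries 3 and 4 and at most 7 elsewhere. Foxp3, the factor of regulatory T cells, had 5, 2, 8 and 11 counts in female controls, 1, 8, 32 and 53 counts with sedentary pain and 7, 2, 7 and 6 counts in active pain. Per kb it stood at 0.226 and 0.408 CPM in libraries 3 and 4, the lowest of the list there except Themis. Foxp3 overlaps Ppp1r3f and Ccdc22 on the other strand.

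Ms4a4b, a tetraspanning surface protein of T cells, had 0, 0.0421, 0.429 and 0.550 CPM in female controls, 0.869, 0.992, 21.99 and 17.7 CPM with sedentary pain and 0.196, 0.353, 0.346 and 1.22 CPM with active pain. It rose by 5.23 ± 1.23 (adjusted p = 0.0103), with no overlap between sedentary pain and control. The gene passed the filter only through sedentary pain, so this change is a description.

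**Figure D4:**
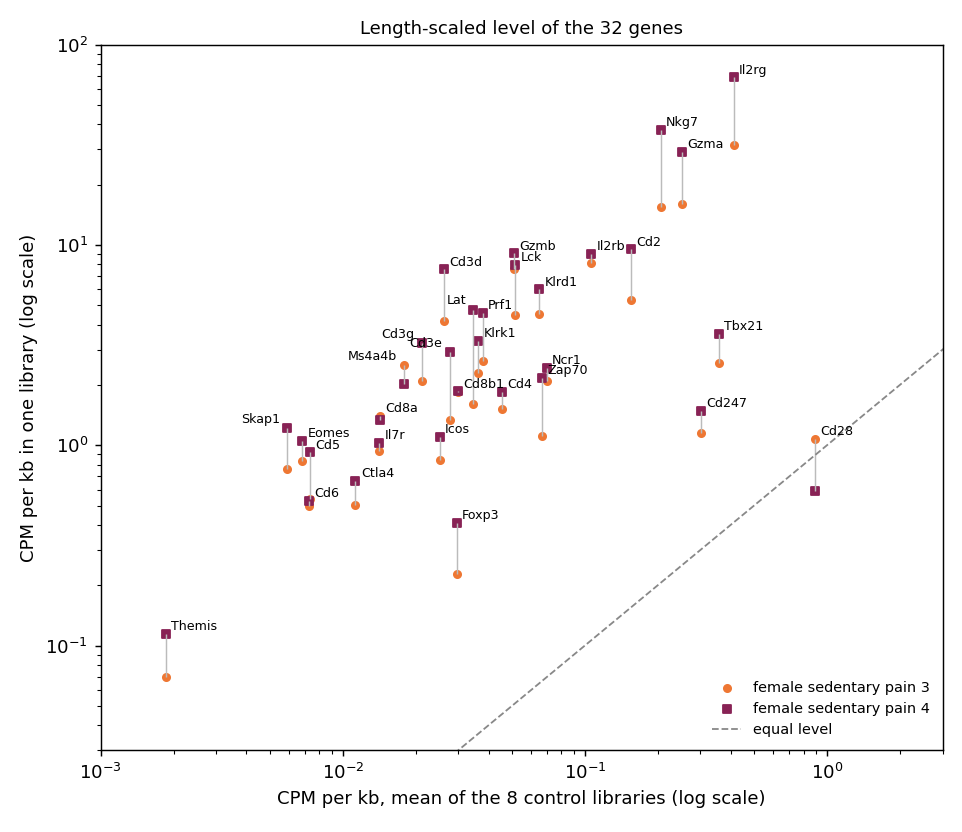
Length-scaled level of the 32 genes in female sedentary pain libraries 3 and 4 (vertical axis, CPM per kb of exon, log scale) against their mean in the 8 control libraries of both sexes (horizontal axis, log scale), with a dashed line of equal level. Il2rg, Nkg7 and Gzma are the highest in both libraries, Themis is the lowest, and Cd28 lies just above the line in library 3 and below it in library 4.

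The second comparison asked whether the genes differ with pain in females that had run. None of the 18 tested genes passed against the same 4 female controls (edgeR, 0 of 14511 genes passed, 0%), and none passed in DESeq2 (0.89%). At an unadjusted p under 0.05 there was 1, Il7r, at 2.78 ± 0.99 on the log2 scale (adjusted p = 0.606), where 7.03% of genes had such a p. The median log2 fold change was 0.56, with 14 of the 18 above 0. Values of active pain lay wholly above the controls for 2 of the 32 genes, Cd3d and Il7r, against 2.31% of genes with a count.

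Active pain was also compared directly with sedentary pain in females. Of the 18 genes, 14 fell and 0 rose (edgeR), while 11.9% of all genes passed in either direction and 9.41% fell. The median was -4.12. Of the 8 that pass the filter without sedentary pain, 6 fell. The other 8 that fell, Cd4, Lck, Zap70, Lat, Gzmb, Prf1, Klrk1 and Ms4a4b, passed it only through sedentary pain. The count of 14, the median and the changes of these genes are thus a description. Nkg7 fell by 4.88 ± 1.10 on the log2 scale (adjusted p = 0.0328), and Prf1 fell least of the granule genes, by 4.13 ± 0.97. Among the cytokine receptors Il2rb fell by 4.75 ± 1.05 and Il2rg fell by 4.12 ± 0.85, while Il7r did not pass, at -1.93 ± 0.79 (adjusted p = 0.118). Lck fell by 4.74 ± 1.07 and Zap70 fell by 3.07 ± 0.77 (adjusted p = 0.0330). Cd4 fell by 4.40 ± 0.84, Ms4a4b fell by 4.22 ± 1.14, Klrk1 fell by 4.11 ± 0.90 and Cd2 fell by 3.77 ± 0.91. Tbx21 had the smallest fall, 2.21 ± 0.66 (adjusted p = 0.0491). Klrd1 lay just outside the threshold at -3.40 ± 1.04 (adjusted p = 0.0533), and Cd247 and Cd28 did not pass. Active pain lay wholly below sedentary pain for 9 of the 32 genes, Cd3e, Cd4, Cd8a, Cd6, Lck, Skap1, Il2rb, Il2rg and Nkg7, against 4.28% of genes. DESeq2 called 29 of 32 (19.2% of genes), and edgeR called 1, Cd4, without a filter (0.667%). With the filter on 2 libraries it called 26 (11.6%) and within replicates 3 and 4 it called 30 (15%), where 18 and 19 of the 32 genes passed the filter only through sedentary pain, so these counts are no support. No gene of the list passed without female sedentary pain 3 (0.0204% of genes), without female sedentary pain 4, or without female active pain 1, 2 or 4, and none passed within replicates 1 and 2, with both high libraries left out, with only the 2 groups fitted or with 1 surrogate variable (0% of genes in each of these other fits).

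In males, 11 of the 32 genes passed the filter, and 0 of these 11 differed between sedentary pain and control (edgeR, 0% of 14404 genes). At an unadjusted p under 0.05 there were 8 of the 11, where 8.84% of genes had such a p, the smallest adjusted p was 0.296, and the median log2 fold change was 1.99 against -0.01 over all genes. In males too the filter admitted genes through the pain libraries. Of the 11, 8 passed it only through the 2 pain groups together, so these counts and medians are a description, and 0 of the other 3, Cd247, Cd28 and Tbx21, had an unadjusted p under 0.05 in either pain group against control. Without the sedentary pain libraries 6 of the 11 would pass, of which 3 had such a p. DESeq2 called 3, Il2rg, Lck and Nkg7 (1.76% of genes). Nkg7 had 0, 0, 0 and 1 counts in male controls, 5, 4, 5 and 17 with sedentary pain and 16, 9, 5 and 10 in active pain. Lck had 1, 4, 3 and 1 counts in male controls, 15, 5, 12 and 17 with sedentary pain and 12, 6, 3 and 11 in active pain. Gzmb had 0, 0, 1 and 0 counts in controls, 3, 4, 3 and 7 with sedentary pain and 9, 4, 3 and 4 in active pain. Every male pain library was thus above every male control for Nkg7 and Gzmb, at a few counts each. Sedentary pain lay wholly above control for 4 of the 32 genes, Cd2, Lck, Nkg7 and Gzmb, against 2.69% of genes.

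Male active pain gave 0 of 11 against control in edgeR, with 8 at an unadjusted p under 0.05 (7.25% of genes), a smallest adjusted p of 0.465 and a median of 1.87. Without the active pain libraries 4 of the 11 would pass the filter, of which 1 had such a p. DESeq2 called 2, Nkg7 and Gzmb (0.773% of genes). Groups did not overlap for 10 of the 32 genes, all higher with pain, against 4.29% of genes. They were Cd3e, Cd8a, Cd2, Il2rb, Il2rg, Nkg7, Gzma, Gzmb, Klrd1 and Eomes. Gzma had 4, 5, 6 and 1 counts in male controls and 25, 14, 12 and 19 in active pain. Between male active and sedentary pain no gene passed in edgeR or DESeq2, and none had an unadjusted p under 0.05 (0.84% of genes). The median there was 0.06.

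Whether the change with pain differed between the sexes was tested directly, as female change minus male change. Of the 18 genes tested in the fit on 24 libraries, Cd4, Gzmb and Prf1 passed the filter only through female sedentary pain, so counts and medians that include them are a description. For sedentary pain against control, 0 of the 18 tested genes passed (edgeR, 0% of 15103 genes), and 8 had an unadjusted p under 0.05 (9.57% of genes), 6 of them among the 15 that would pass without that group. Cd4, with the smallest unadjusted p, had a difference of 3.76 ± 1.11 (adjusted p = 0.432), a description since that group admitted it. The median was 2.56 over the 18 and 2.49 over the 15. For active pain against control, 0 passed and 1 had an unadjusted p under 0.05 (2.03% of genes). For active against sedentary pain, 0 passed in edgeR and 15 had an unadjusted p under 0.05 (14.7% of genes), 12 of them among the 15 that would pass without female sedentary pain, with a median of -3.89 over the 18 and -3.56 over the 15, and a smallest adjusted p of 0.228. DESeq2 called 7 in that contrast, Cd4, Klrk1, Nkg7, Prf1, Gzmb, Gzma and Il2rb (0.636% of genes). The edgeR count was 17 without female sedentary pain 1 (4.04% of genes) and 13 without male sedentary pain 1 (14.1%), which likewise include Cd4, Gzmb and Prf1 and are a description. Between controls of the 2 sexes 0 of the 18 genes passed (edgeR, 2.83% of genes passed). At an unadjusted p under 0.05 there were 3, Nkg7, Gzmb and Cd28, where 14.9% of genes had such a p, and DESeq2 called 1, Nkg7 (4.23% of genes).

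Genes outside the 32 were counted for sedentary pain against control in females, where 19.6% of all genes rose and 33.5% passed in either direction. As among the 32, some passed the filter only through the sedentary pain libraries, and counts that include them are a description. All these counts include libraries 3 and 4. Of 7 constant-region genes of the T cell receptor, 4 were tested and all 4 rose, but 3 of the 4 passed the filter only through sedentary pain, and the other was Trdc. Trac, of the alpha chain, had 0.0866, 0.252, 0.312 and 0.733 CPM in female controls and 0.416, 0.525, 8.45 and 10.5 CPM with sedentary pain, a rise of 3.77 ± 0.98 (adjusted p = 0.0156). Trbc2 and Trbc1, near-identical genes of the beta chain whose reads may be split, rose by 4.95 ± 1.28 and 5.51 ± 1.13. Libraries 3 and 4 were again the highest for these 3 genes. Among 25 other genes of T cell receptor signalling, 19 were tested, 12 rose and 1 fell, and of the 16 that would pass the filter without sedentary pain 9 rose. The 3 most abundant of them were already high in control muscle. Prkcq, protein kinase C theta, had 98.3, 104, 91.9 and 98.1 CPM in female controls and 78.4, 58.6, 98.1 and 81.2 CPM with sedentary pain (adjusted p = 0.0979). Nfatc1 and Itpkb did not pass either (adjusted p = 0.103 and 0.456). The gene that fell was Plcg1, named after its value was seen, by 0.43 ± 0.11 on the log2 scale.

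Of 46 further surface and effector genes of T and NK cells, 22 were tested, 16 rose and 0 fell, and of the 10 that would pass the filter without sedentary pain 5 rose. Ccl5, a chemokine that T and NK cells make and respond to, had the highest mean over the 12 female libraries through libraries 3 and 4 alone, with 0.173, 0, 0.703 and 1.80 CPM in female controls and 1.85, 4.84, 158 and 337 CPM with sedentary pain (log2 fold change 7.44 ± 1.61, adjusted p = 0.00714). Zbtb16 and S1pr1, at means of 32.8 and 23.7 CPM in female controls against 0.670 CPM of Ccl5, did not pass (adjusted p = 0.110 and 0.509). Of 9 chemokines that draw these cells, 6 were tested and 5 rose, 4 of them among the 5 that would pass without sedentary pain. Ccl5 is on this list too, so its rise is in both counts. Cxcl9, a ligand of CXCR3, had 0.780, 1.05, 6.09 and 8.10 CPM in controls and 4.05, 3.68, 199 and 246 CPM with sedentary pain, and rose by 4.78 ± 1.33 (adjusted p = 0.0202). Cxcl10, another CXCR3 ligand, had 0.433, 0.210, 0.742 and 1.96 CPM and then 3.29, 33.4, 75.1 and 120 CPM, and rose by 6.03 ± 1.32 (adjusted p = 0.00762). Library 2 lay within the controls for Cxcl9 and above them for Cxcl10. Of 19 genes listed as ligands and cytokines of T and NK receptors, with the receptor chains Il2ra and Il15ra among them, 12 were tested and 6 rose. Of these, 5 were among the 11 that would pass without sedentary pain. H2-T23, which encodes Qa-1, the ligand of receptors that contain CD94, had 13.3, 9.13, 23.1 and 28.6 CPM in controls and 31.5, 69.6, 236 and 446 CPM with sedentary pain (3.38 ± 0.73, adjusted p = 0.00713). Pvr rose by 1.08 ± 0.18 (adjusted p = 0.00302), and Il15, the cytokine that sustains NK cells through Il2rb and Il2rg, was at -0.53 ± 0.21 (adjusted p = 0.0716).

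Markers of other leukocytes moved with the T and NK genes in the same libraries. Summed over 14 macrophage genes, the level was 123, 119, 215 and 263 CPM in female controls, 549, 903, 4398 and 6340 CPM with sedentary pain and 310 to 602 CPM with active pain. Of these 14, 13 rose in sedentary females, among them Lyz2 with 36.1, 43.1, 67.2 and 97.2 CPM in controls and 213, 249, 2268 and 2778 CPM with sedentary pain. All 8 pan-leukocyte genes rose. Of 10 neutrophil genes 8 were tested and 6 rose, 4 of them among the 5 that would pass without sedentary pain, but the highest female sum, 283 CPM, was in library 2, with 41.6 and 59.7 CPM in libraries 3 and 4. Of 15 B cell genes 7 were tested, and Cd79a and Cd79b rose and Ebf1 fell. Cd79a passed the filter only through sedentary pain. The B cell sum was 33.1 to 56.9 CPM in female controls and 99.1 and 116 CPM in libraries 3 and 4, most of it Ighm, which did not pass (adjusted p = 0.295). Of 7 markers of lymph node stroma and follicles, Ccl21a was listed at 0 counts in all 24 libraries, Ccl19, Cr2, Fcer2a, Glycam1 and Madcam1 had at most 6 counts in any library, and only Cxcl13 was tested. Ccl21a has near-identical copies, and how reads shared with them were counted was not given in the sources used here, so its 0 does not show absence. Cxcl13 rose by 2.20 ± 0.52 (adjusted p = 0.0108), with 4.99 and 2.12 CPM in libraries 3 and 4 and 3.59 CPM in library 1. Of 12 skeletal muscle genes 0 rose and 1, Ryr1, fell. The part of macrophages, B cells and muscle content in the results on T and NK genes was not tested.

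**Figure D5:**
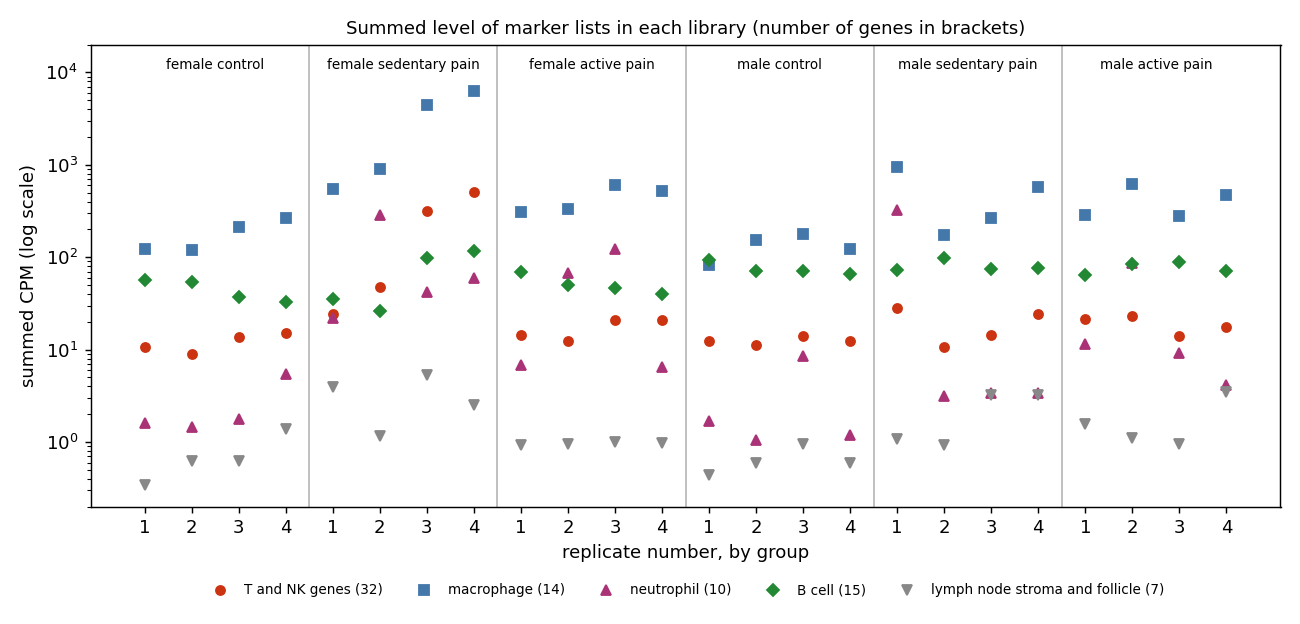
Summed CPM (vertical axis, log scale) of the 32 T and NK genes and of macrophage, neutrophil, B cell and lymph node marker lists in each library (horizontal axis, replicates 1 to 4 by group). T and NK genes and macrophage genes peak together in female sedentary pain libraries 3 and 4, while neutrophil genes peak in female sedentary pain 2 and male sedentary pain 1.

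Female controls also differed among themselves in the direction of the library-number split. Controls 3 and 4 were both above controls 1 and 2 for 23 of the 32 genes, and the reverse held for 1, Cd28. The first pattern held for 26.9% of tested genes, which include 18 of the 32. Macrophage sums split in the same way, at 215 and 263 CPM against 123 and 119 CPM. In female sedentary pain, libraries 1 and 2 were both above all 4 controls for 16 of the 32 genes, against 20.3% of tested genes. With the side of this split as a factor in the fit, 16 genes of the list and 37.1% of all genes passed in female sedentary pain against control, and 16 of the list passed without it.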

How the data were processed

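RNA was extracted with a kit for fibrous tissue, and 0.5 µg of total RNA per sample was made into TruSeq stranded libraries and read on a NovaSeq, per the labels' protocols. The authors deposited raw counts of reads, 1 table per sample, by Ensembl gene. The submitters' processing notes name HISAT2 2.1.0, Salmon 0.9.1, featureCounts and DESeq2 1.24.0, and the builds mm10 and GRCm38.p6, without their roles. The annotation and the strand setting were not given in the sources used here. Symbols were matched for 54409 of 54532 identifiers, and positions and exon lengths are from GENCODE M21.

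The 32 genes and the 15 other lists were chosen with earlier results of these data known. Per role, full statistics are given for the largest and the smallest change past the threshold, and other genes by counts and ranges. From other lists up to 3 of the most abundant tested genes are named.

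Counts were filtered with filterByExpr by group (minimum count 10), scaled by trimmed mean of M-values (TMM) and tested, two-sided, with edgeR 4.0.16 (quasi-likelihood, robust) in R 4.3.3, adjusted by Benjamini-Hochberg over all genes tested, at 0.05. Each sex was fitted on its 12 samples, and sex differences and controls between sexes on all 24. The fit was also run on simulated counts in which every library of a group shifted alike. That run does not vouch for calls carried by part of a group. Alternatives were DESeq2 1.42.0, relative log expression (RLE) scaling, no filter, no robust step, other samples in the fit, the split by library number as a factor, each side of it alone, 1 surrogate variable (sva 3.50.0), a replicate block and each library left out. A filter on 2 samples, and leaving out both high libraries, were chosen after seeing the data. Promoters are from RefSeq. Figures were drawn with matplotlib 3.10.9 in Python 3.11.15.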

Additional observations from a re-analysis of the deposited data

Results flagged for a closer look

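In 7 of 105 groups of 4 libraries with at least 10 counts of a gene in some library, 1 library lay far from the other 3. Chance flags about 1 in 20 such groups. Il7r was at 2.23 CPM in female active pain 3, with the next library at 0.388 CPM, and at 1.94 CPM in male sedentary pain 1, with the next at 0.291 CPM. Ms4a4b was at 1.22 CPM in female active pain 4, above 0.353 CPM in the next, and at 0.0684 CPM in male active pain 3, below 0.560 CPM in the next. Nkg7 was at 0.618 CPM in male sedentary pain 4, above 0.211 CPM. Tbx21 was at 1.37 CPM in female active pain 1, above 0.847 CPM. Cd247 was at 1.11 CPM in male active pain 4, below 2.19 CPM. No gene met this rule in female sedentary pain. The rule looks for 1 library apart from the other 3, so it cannot flag libraries 3 and 4 standing apart together.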

How the results depend on the processing

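For female sedentary pain against control, the 16 genes called became 30 with DESeq2, 29 without a filter on low counts, 29 with the filter on 2 samples, 31 within replicates 3 and 4, 2 within replicates 1 and 2, 2 with libraries 1 and 2 alone and 0 with 1 surrogate variable. Of the 32 genes, 18 passed the filter on 2 samples, and 19 that within replicates 3 and 4, only through sedentary pain. Leaving out each library in turn gave 15 to 21. For female active against sedentary pain, the 14 became 29 with DESeq2, 26 with the filter on 2 samples, 30 within replicates 3 and 4, 1 (Cd4) without a filter, and 0 with only the 2 groups compared, with 1 surrogate variable, within replicates 1 and 2 and with libraries 1 and 2 alone. Leaving out each library gave 0 to 21. DESeq2 gave 3 in male sedentary pain, 2 in male active pain, 7 for the sex difference of active against sedentary pain and 1 for male against female controls, where edgeR gave 0. The last comparison also gave 1 with female sedentary pain reduced to libraries 1 and 2. Leaving out each library gave 0 to 17 for that sex difference, 0 to 1 for the controls, and 0 in the other comparisons. Tbx21 turned to -0.0852 (1 surrogate variable) and -0.10 (replicates 1 and 2) for sedentary pain against control, and to 0.13 for active against sedentary pain within replicates 1 and 2. Lat turned to 0.35 in that contrast with 1 surrogate variable. Fewer genes tested, fewer samples and the surrogate variable are part of these alternatives, and the cause was otherwise not tested.

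Whether the replicate numbers pair the samples could not be decided, because libraries of unlike number were not correlated for comparison. The residuals of same-numbered libraries correlated at a mean of 0.109 in females (over 0.1 in 6 of 12 pairs) and 0.0132 in males (4 of 12). With the replicate block, 15 genes were called in female sedentary pain against control (25.8% of all genes), 14 in active against sedentary pain (11.2%) and 0 in each other comparison. Genes at a few counts per library limit what could be seen in males and in controls.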

Other observations

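Genes of cell division moved in the same libraries as the T and NK genes. Of 12 cell cycle genes 10 were tested in females, and all 10 rose in sedentary pain, where 19.6% of all genes rose. Of these, 6 passed the filter on low counts only through sedentary pain, and the other 4 were Mki67, Top2a, Rrm2 and Tyms. Top2a, an enzyme that untangles DNA, had 0.217, 0.336, 0.351 and 0.611 CPM in female controls and 3.36, 1.75, 12.1 and 17.7 CPM in sedentary pain (log2 fold change 4.47 ± 0.72, edgeR adjusted p = 0.00285). Mki67, the proliferation marker Ki-67, rose by 3.86 ± 0.69 (adjusted p = 0.00354). Which cells carried these transcripts was not tested.

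Mast cell genes, by contrast, gave 0 of 5 tested in sedentary females (edgeR), with 0 at an unadjusted p under 0.05 and a median of 0.57. Mcpt4, a mast cell protease, had 6.37, 5.26, 10.97 and 9.38 CPM in female controls and 4.12, 13.5, 17.4 and 13.8 CPM in sedentary pain. Of 9 dendritic cell genes 6 were tested and 2 rose, Flt3 and Itgax, named after their values were seen, and Flt3 passed the filter only through sedentary pain. Of 6 genes of type 2 innate lymphoid cells 2 were tested. Rora fell by 0.57 ± 0.19 (adjusted p = 0.0384) from a level of 71.9 to 108 CPM in female controls, and Il1rl1 was at 1.16 ± 0.44 (adjusted p = 0.0592).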
